A study of Mus musculus with 18 samples.

Results

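Klf11 and 9 other genes of the Kruppel-like factor family (Klf10, Klf9, Klf15, Klf3, Klf4, Klf5, Klf6, Klf13 and Klf16) were followed through 18 poly(A) RNA sequencing libraries of AML12 cells. These are 10 of the 35551 gene IDs in each deposited table, and all 10 had a mean signal above the minimum of 10 used for testing. They were chosen by measured values, because Klf11 was higher with pemafibrate than with DMSO in all 9 pairs of libraries. The pemafibrate differences of the 10 genes are therefore given below as descriptions, without a test. Only changes of these differences between windows were tested.

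AML12 is a non-transformed mouse hepatocyte line that came from animals carrying a human TGF-alpha transgene, and all groups are of this line. Circadian rhythms were synchronized across the culture before exposure, either to pemafibrate, a selective modulator of the lipid-sensing nuclear receptor PPARα, or to its solvent DMSO. Exposure lasted 24 h from T0 to T24, 6 h from T14 to T20 as a day-like window, or 6 h from T24 to T30 as a night-like window. Each window had 3 pemafibrate and 3 DMSO libraries, numbered 1 to 3 in the labels, which makes 6 groups. The labels state neither the dose nor how the cells were synchronized. Values are the authors' normalized signal per gene, scaled within each window, and a pair below is a pemafibrate and a DMSO library of the same window and replicate number.

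Kruppel-like factors are zinc finger proteins that bind GC-rich and CACCC sequences in promoters, and the members differ mainly in the partners they recruit. KLF9, KLF10, KLF11, KLF13 and KLF16 carry a short domain that binds the corepressor SIN3A, KLF3 represses through CtBP, and KLF4, KLF5 and KLF6 can activate through acetyltransferases. In liver, KLF15 is known for amino acid breakdown and gluconeogenesis, KLF9 for induction by glucocorticoids, and KLF10 for control by the circadian clock. KLF10 and KLF11 were named as early genes of TGF-beta.

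The promoters of 3 members are shown, taken from RefSeq on GRCm38.p6. They run from 250 bases before to 50 bases after the RefSeq gene start. For Klf11 this start differs from that of its gene coordinates given further below, which came from GENCODE. Klf11 is shown because it was the member higher in every pair, Klf4 because its levels ran opposite to those of Klf11 over the replicate numbers, and Klf15 because its window holds the most E-boxes. Capitals mark the GC box (GGGCGG or its complement CCGCCC), which Kruppel-like factors and Sp proteins bind, and the E-box CACGTG, which clock proteins bind. The windows are chr12:24651121-24651420 (plus strand) for Klf11, chr4:55532426-55532725 (minus strand) for Klf4 and chr6:90462326-90462625 (plus strand) for Klf15.
Klf11: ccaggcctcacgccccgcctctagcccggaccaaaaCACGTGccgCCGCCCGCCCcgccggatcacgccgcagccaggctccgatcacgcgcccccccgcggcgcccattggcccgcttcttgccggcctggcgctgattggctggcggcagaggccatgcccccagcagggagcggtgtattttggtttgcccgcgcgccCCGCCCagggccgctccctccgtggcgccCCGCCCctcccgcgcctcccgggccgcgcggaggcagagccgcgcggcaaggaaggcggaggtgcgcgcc
Klf4: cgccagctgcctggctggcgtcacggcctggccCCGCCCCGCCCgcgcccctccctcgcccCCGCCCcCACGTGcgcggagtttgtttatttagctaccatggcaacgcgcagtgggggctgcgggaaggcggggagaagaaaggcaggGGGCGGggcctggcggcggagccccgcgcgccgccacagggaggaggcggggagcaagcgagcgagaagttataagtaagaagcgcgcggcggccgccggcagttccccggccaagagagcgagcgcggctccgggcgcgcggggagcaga
Klf15: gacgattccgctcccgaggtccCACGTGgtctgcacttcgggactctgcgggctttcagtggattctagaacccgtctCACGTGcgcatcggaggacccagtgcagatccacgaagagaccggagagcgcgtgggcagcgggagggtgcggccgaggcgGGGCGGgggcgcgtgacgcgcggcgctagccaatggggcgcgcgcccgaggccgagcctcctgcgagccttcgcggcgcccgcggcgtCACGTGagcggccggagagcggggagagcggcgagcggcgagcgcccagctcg

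Of the 10 members, 7 had an entry among 32851 promoters of the RefSeq table, and both strands were searched. The GC box was in 6 of the 7 windows, all but that of Klf9, against 35.7% of all promoters. The E-box was in 4 of the 7 (Klf11, Klf15, Klf4 and Klf6), against 7.15% of all promoters, with 3 matches in Klf15 and 1 in each of the others. The Klf11 window held 4 GC boxes, of which the 2 at positions 46 and 50 overlap. The GC content of the 7 windows ran from 63.0% in Klf6 to 77.7% in Klf11, all above the median of 52.7% over all promoters. The shares of all promoters given here were not matched for GC content. CACCC was in 4 of the 7, against 57.5%, and in Klf13 and Klf3 a match shares a base with a GC box. No member window held the DR1 element that PPARα binds, a pair of AGGTCA half-sites 1 base apart, which was in 0.0396% of all promoters. Neither TGACGTCA, the cyclic AMP response element (1.79% of all promoters), nor the glucocorticoid response element, GNACA and TGTNC 3 bases apart (0.475%), was found in the 7. These matches describe letters in a 300-base window.

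Hepatocyte markers were present, with an exception. Of 10 hepatocyte markers, Alb ranged from 3124 to 7190, Hnf4a from 5476 to 9662 and Krt8 from 48221 to 83449 in normalized signal, whereas Apoa1 was between 2.96 and 15.8. Of the cholangiocyte markers, Krt19, Krt7 and Sox9 were expressed and Epcam reached at most 7.25. Vim was the only fibroblast marker of the list above 120. The macrophage markers Adgre1 and Clec4f were at 0 in all 18 libraries. Ptprc and Cd68, also macrophage markers, ranged from 27.6 to 58.5 and from 29.3 to 60.7. The endothelial markers Kdr, Cdh5 and Stab2 reached at most 4.62, whereas Pecam1 ranged from 7.92 to 32.4. Summed hepatocyte markers ran from 157920 to 201807 in pemafibrate libraries and from 155795 to 202708 in DMSO libraries, and totals over all genes were 31461977 to 33884634 per library. The treatment check list moved: of 6 PPARα target and receptor genes, 5 rose in the fit common to the 3 windows. They were Acot1 (log2 difference 0.73), Angptl4 (0.57), Cpt1a (0.31), Plin2 (0.37) and Pdk4 (1.17), and without the replicate block Acot1, Cpt1a and Plin2 lost the call (adjusted p = 0.225, 0.345 and 0.213 in limma).

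Klf11 (ENSMUSG00000020653, chr12:24651274-24662789, plus strand), a Sin3-binding repressor known in liver for effects on glucose output, was higher with pemafibrate in every pair. Over T0 to T24 its normalized signal was 1287, 1109 and 911 with pemafibrate, against 1050, 942 and 728 with DMSO, in replicates 1, 2 and 3. Over T14 to T20 it was 1016, 940 and 677 with pemafibrate, against 946, 780 and 519 with DMSO. Over T24 to T30 it was 930, 902 and 727 with pemafibrate, against 775, 763 and 536 with DMSO. The treatments overlapped in all 3 windows, because the pemafibrate library of replicate 3 lay below the DMSO library of replicate 1 each time. Within pairs the order never turned. The log2 difference averaged 0.28 ± 0.044 in the window starting at T0, 0.25 ± 0.14 in that starting at T14 and 0.31 ± 0.11 in that starting at T24 (SD, n = 3 pairs each).

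**Figure D1:**
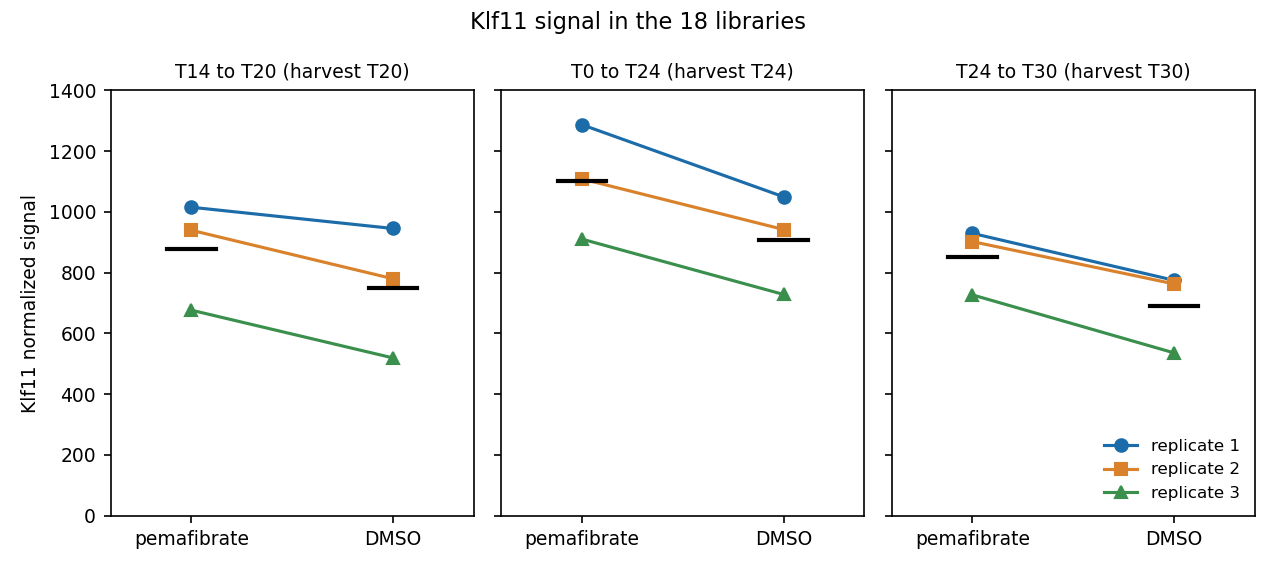
Klf11 normalized signal (vertical axis, from 0) with pemafibrate and with DMSO in each window. Lines join libraries of the same replicate number and black bars are group means. All 9 lines lie higher at pemafibrate, and replicate 3 is lowest in all 6 groups.

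Over all 9 pairs the Klf11 signal was 21.7% higher with pemafibrate, a mean log2 difference of 0.28 ± 0.095 (SD, n = 9), with pairs from 0.10 to 0.44. The smallest was replicate 1 over T14 to T20 and the largest replicate 3 over T24 to T30. Of 13258 genes, 64 (0.483%) were higher in 9 of 9 pairs, and 15 (0.113%) were so with a mean difference at least that of Klf11. The choice of the family used this pattern, so nothing is read from these shares. Averaged over windows, the difference was 0.22 in replicate 1, 0.25 in replicate 2 and 0.38 in replicate 3, the number in which Klf11 was lowest. Fewer cells expressing the gene and less RNA per cell cannot be told apart in such bulk libraries.

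Klf10, the closest relative of Klf11 and like it induced by TGF-beta, was higher with pemafibrate in 6 of 9 pairs. Over T0 to T24 its signal was 2100, 2050 and 1581 with pemafibrate, against 1832, 1812 and 1447 with DMSO, and each pair was higher. Over T14 to T20 it was 1846, 2260 and 1814 with pemafibrate, against 1972, 1997 and 1822 with DMSO, where only replicate 2 was higher. Over T24 to T30 it was 2043, 2024 and 1921 with pemafibrate, against 1799, 2034 and 1776 with DMSO, with replicate 2 slightly lower. The mean log2 differences were 0.17 ± 0.036, 0.025 ± 0.14 and 0.097 ± 0.096 in these windows (SD, n = 3 pairs each). The pemafibrate and DMSO libraries overlapped in each of them.

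The other Sin3-binding members were Klf9, Klf13 and Klf16. Klf9, a glucocorticoid-induced factor, differed in mean log2 by 0.0029 ± 0.025 over T0 to T24, and by 0.029 ± 0.039 over T14 to T20. Over T24 to T30 its signal was 1801, 1635 and 1432 with pemafibrate, against 2120, 1699 and 1491 with DMSO. Each of these pairs was lower with pemafibrate, and replicate 1 lay furthest apart. The T24 to T30 mean for Klf9 was −0.12 ± 0.10 in log2 (SD, n = 3 pairs). Klf13, described in lymphocytes as an activator of chemokine transcription, kept within −0.054 and 0.088 in all 9 pairs. Klf16, first described as a repressor at dopamine receptor genes, was lower in all 3 pairs over T14 to T20, with 892, 743 and 899 with pemafibrate, against 935, 774 and 971 with DMSO.

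Klf3, the CtBP-binding repressor, had 6 of 9 pairs higher and a mean log2 difference of 0.033 ± 0.076 over all pairs (SD, n = 9). Its 3 pairs over T24 to T30 were all higher, by 0.020 to 0.070. Klf15, the factor of amino acid breakdown and gluconeogenesis, was lower with pemafibrate in 7 of 9 pairs. Over T14 to T20 Klf15 had 682, 499 and 493 with pemafibrate, against 847, 529 and 475 with DMSO. Replicate 1 of that window was the lowest of all the paired differences, at −0.31. All 3 Klf15 pairs over T24 to T30 were lower, by a mean log2 of −0.045 ± 0.028 (SD, n = 3 pairs).

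Klf4, a stress and differentiation factor, Klf5, linked to proliferation, and Klf6, an injury-responsive factor of liver, showed no shared direction over the windows. Klf4 was lower in all 3 pairs over T0 to T24, with 446, 472 and 656 with pemafibrate, against 483, 519 and 660 with DMSO, and mixed in the other windows. Klf5 was higher in all 3 pairs over T0 to T24 (mean log2 0.031 ± 0.046). It was lower in all 3 over T14 to T20 (mean −0.069 ± 0.016, SD, n = 3 pairs each). Klf6 over T0 to T24 had 7968, 6803 and 9387 with pemafibrate, against 7655, 6715 and 8813 with DMSO, each pair higher. Over T24 to T30 it had 7677, 5687 and 7076 with pemafibrate, against 9205, 6168 and 7256 with DMSO, each pair lower. The pemafibrate range of Klf6 overlapped that of DMSO in both windows.

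**Figure D2:**
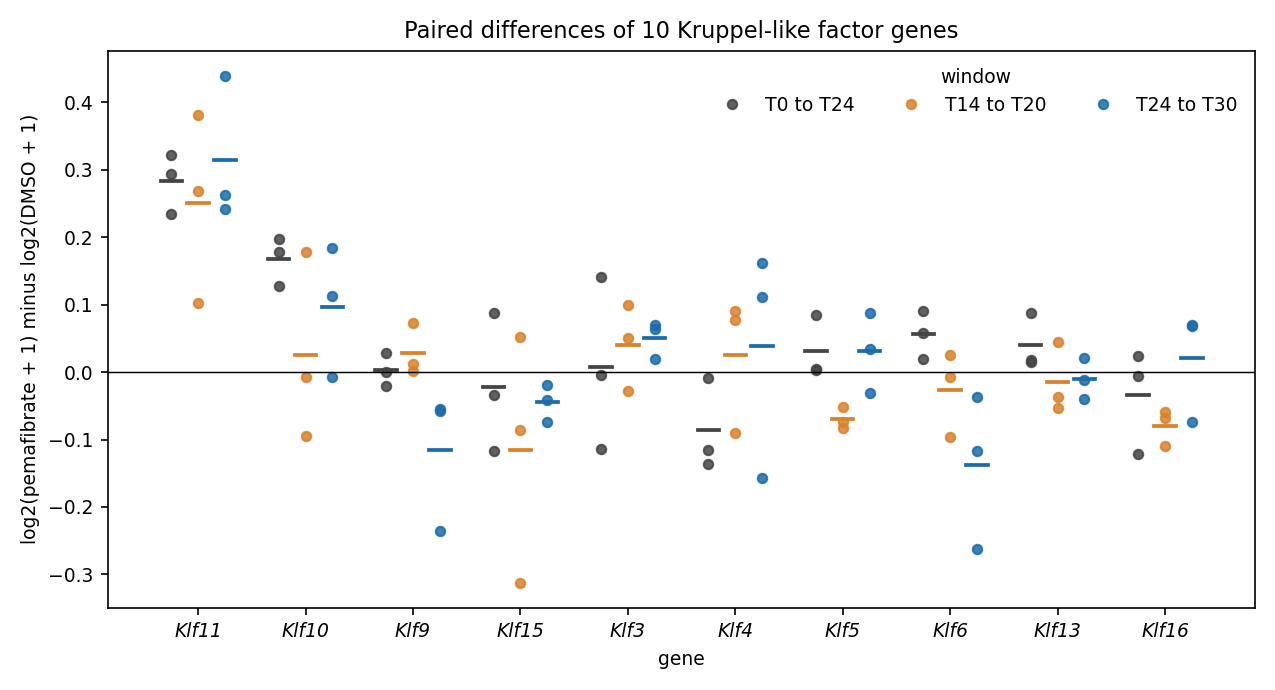
Paired difference in log2(signal + 1), pemafibrate minus DMSO, for each member (vertical axis, log2). Points are the 3 pairs of a window and bars their means. All 9 Klf11 points are above 0, and the points of the other members lie between −0.31 and 0.20.

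Counted by window, 5 members (Klf11, Klf10, Klf5, Klf6 and Klf13) were higher in all 3 pairs over T0 to T24, where 12.7% of all genes were, and 1 (Klf4) was lower, where 12.9% were. Over T14 to T20, 2 were higher (Klf11 and Klf9, against 14.6% of genes) and 2 lower (Klf5 and Klf16, against 16%). Over T24 to T30, 2 were higher (Klf11 and Klf3, against 14.9%) and 3 lower (Klf9, Klf15 and Klf6, against 15.6%). Klf11 was the member with all pairs one way in every window, which the choice of the family used. It is therefore counted among the higher members of each window by that choice. No member had its 3 pemafibrate libraries all above its 3 DMSO libraries, which 1.61%, 1.82% and 2.08% of genes had in the 3 windows in the same order, nor all below, which 1.35%, 1.36% and 2.13% had. The median of the 10 mean log2 differences over all pairs was −0.0049, beside −0.0025 for all genes.

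Whether the pemafibrate difference itself changed with the window was tested in limma over all 18 libraries with the 9 pairs as blocks and Benjamini-Hochberg adjustment. No member passed in any of the 3 comparisons of windows, and 0 of 13258 genes did (0%), with 1225, 654 and 1057 genes at an unadjusted p under 0.05 for T14 to T20 minus T24 to T30, T0 to T24 minus T14 to T20 and T0 to T24 minus T24 to T30. These comparisons use the same 9 paired differences by which Klf11 was chosen. Its intervals and p-values are therefore not free of that choice. For Klf11 the day-like minus night-like difference was −0.06 in log2 (95% interval −0.26 to 0.13, adjusted p = 0.854 in limma). The 24 h window minus the day-like window gave 0.03 (−0.16 to 0.23, adjusted p = 0.997 in limma), and the 24 h window minus the night-like window −0.03 (−0.22 to 0.16, adjusted p = 0.957 in limma). The sign of these last 2 differences turned when replicate 1 was left out of the first (−0.046) or replicate 3 of the second (0.012). The intervals allow a Klf11 difference between windows of up to 0.26 in log2, nearly as large as the pemafibrate difference.

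The member of the smallest p in each comparison of windows was another one. Klf9 differed by 0.15 in log2 between the day-like and the night-like window (95% interval 0.0082 to 0.28, adjusted p = 0.526 in limma). Klf5 differed by 0.10 between the 24 h and the day-like window (−0.014 to 0.21, adjusted p = 0.994 in limma). Klf6 differed by 0.19 between the 24 h and the night-like window (0.066 to 0.32, adjusted p = 0.594 in limma). These are the 3 members whose pairs all pointed one way in the first window of the comparison and the opposite way in the other, as in 5.8%, 2.57% and 4.09% of genes for these comparisons, and none passed the adjustment over all genes.

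Levels by harvest time are described without a test, since each harvest time is a table that the authors normalized separately. The harvest at T24 also had 24 h of exposure and the others 6 h, so harvest time and exposure length cannot be told apart. In DMSO libraries Klf11 averaged 748 ± 215 at T20, 907 ± 164 at T24 and 691 ± 135 at T30 (SD, n = 3 each). The T24 value was above T20 in all 3 replicate numbers (mean log2 0.30), as for 14.3% of genes, and T30 was below T24 in all 3 (mean −0.39), as for 16.3% of genes. Pemafibrate libraries had the same course, with 877 ± 178, 1102 ± 188 and 853 ± 110 at T20, T24 and T30, a mean log2 of 0.34 for T24 against T20 (15.8% of genes) and −0.36 for T30 against T24 (13.6%). The median of all genes moved by −0.022 for T24 against T20 and by 0.040 for T30 against T24 in DMSO libraries. Ordered by mean, the 6 Klf11 groups ran from pemafibrate T24 through DMSO T24, pemafibrate T20, pemafibrate T30 and DMSO T20 to DMSO T30, the first 2 groups differed by slightly more than 1 SD, and the other neighbours by less.

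**Figure D3:**
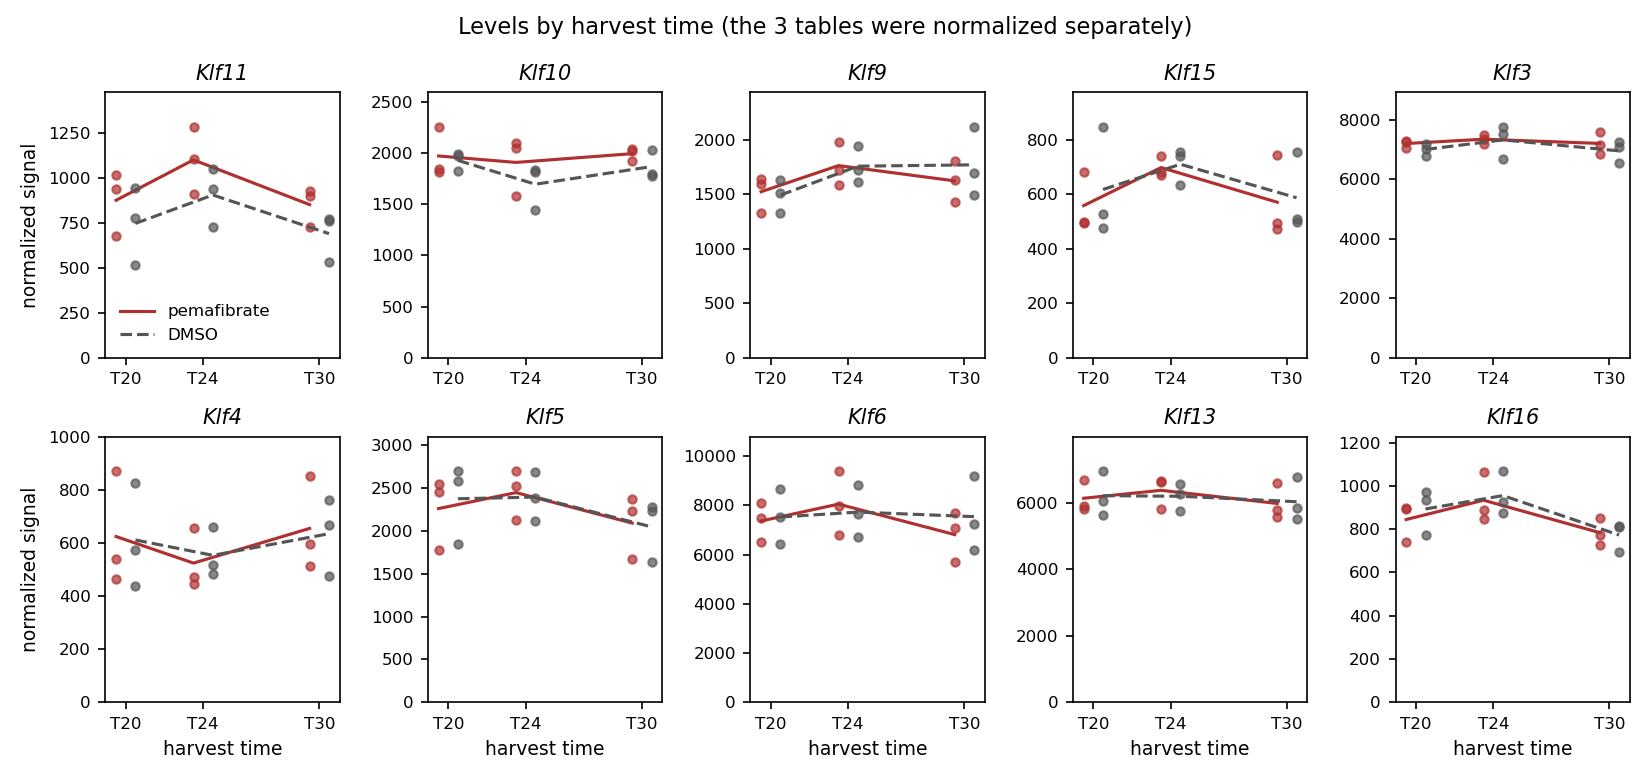
Normalized signal of each member (vertical axes, from 0) against harvest time in h after T0, red for pemafibrate and grey for DMSO. Points are libraries and lines join group means. The Klf11 means are highest at T24 under both treatments, 1102 with pemafibrate and 907 with DMSO.

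Klf9 had its lowest means at T20 under both treatments. In DMSO libraries it averaged 1492 ± 152 at T20, 1758 ± 167 at T24 and 1770 ± 321 at T30 (SD, n = 3 each), and both later harvests were above T20 in all 3 numbers, by 0.24 in mean log2 each time. For T30 against T20 this held for 21% of genes. Klf10, the clock-controlled member, went the other way from Klf11 between T20 and T24 in DMSO libraries, with 1972, 1997 and 1822 at T20 and 1832, 1812 and 1447 at T24. All 3 numbers were lower (mean log2 −0.19, as for 23.2% of genes), whereas with pemafibrate 1 of 3 was higher.

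Klf16 and Klf5 were lowest at T30. Klf16 in DMSO libraries had 935, 774 and 971 at T20, 923, 875 and 1068 at T24, and 812, 694 and 813 at T30. It was the 1 member whose DMSO libraries of T30 lay below those of T24 without overlap, as 5.51% of genes did. Klf5 in DMSO libraries averaged 2376 ± 463 at T20, 2396 ± 285 at T24 and 2048 ± 359 at T30 (SD, n = 3 each). Both genes were lower at T30 than at T20 in all 3 numbers (mean log2 −0.21 each), as was Klf13 by 0.035 to 0.056, where 15.9% of genes were. Klf15 depended on the number: between T20 and T24 in DMSO it changed by −0.19, 0.52 and 0.41 in log2 in replicates 1, 2 and 3.

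Compared between genes per kilobase of exon, Klf6 had the highest mean level, 1709 normalized signal per kb over the 18 libraries (SD 238). Klf13 had 818, Klf3 638, Klf10 454, Klf5 437, Klf9 344, Klf16 323, Klf15 223, Klf11 199 and Klf4 197 per kb. Klf11 thus stood among the lowest of the 10 per length, and the SDs of Klf15, Klf11 and Klf4, at 45.1, 45.0 and 47.6 per kb, were larger than the gaps between them. Klf5 and Klf10 likewise differed by less than their SDs of 67.0 and 45.7, as did Klf9 and Klf16 with 43.7 and 39.4. Gene lengths came from the GENCODE exon union, and the labels do not say which transcripts the authors counted.

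The replicate numbers took a larger share of the members' variation than pemafibrate did, 55.5% to 97.9% of the sum of squares within tables against 0.854% to 24.7%. In limma, a test over the 3 numbers within each window, independent of the treatment contrast, called 8 of the 10 members in the T0 to T24 window, 8 in the T14 to T20 window and 7 in the T24 to T30 window at an adjusted p under 0.05. The shares of all genes called were 43.7%, 51.2% and 37.3%. Klf11, Klf9, Klf4, Klf5, Klf6 and Klf13 were called in all 3 windows, Klf15 and Klf16 in 2, Klf10 in 1 and Klf3 in 0. With no variance trend the counts of members were 4, 7 and 2, where 16.1%, 27.1% and 11.8% of all genes were called. Without replicate 3 they were 3, 6 and 4, where 22.0%, 31.9% and 20.8% of all genes were called.

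Klf11 was highest in replicate 1 and lowest in replicate 3 in all 6 groups. Its mean signal was 1001 ± 170 in replicate 1, 906 ± 126 in replicate 2 and 683 ± 144 in replicate 3 (SD, n = 6 libraries each, both treatments and 3 windows). The number accounted for 73.1% of its sum of squares within tables and the treatment, which the choice of the gene used, for 24.7%. The adjusted p in limma was 0.0033, 0.0010 and 0.0092 in the windows starting at T0, T14 and T24. The spread of the paired differences enters this test, so these Klf11 values are not free of the choice of the gene. Without replicate 3 none of the 3 windows passed, with an adjusted p of 0.114, 0.0818 and 0.791. The call over T24 to T30 was also lost with no variance trend (0.0601) and with no treatment term (0.0830). Among the members, Klf10 and Klf9 were also lowest in replicate 3 in all 6 groups.

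Klf4 had the reverse order, lowest in replicate 1 and highest in replicate 3 in all 6 groups. Its mean was 470 ± 28.3, 561 ± 67.6 and 771 ± 95.1 in replicates 1, 2 and 3 (SD, n = 6 libraries each), and the adjusted p in limma was 0.0068, 0.00039 and 0.0052 in the windows starting at T0, T14 and T24. Without replicate 3 the Klf4 value was 0.518, 0.0414 and 0.0506 in the same windows, and with no variance trend it was 0.0576 over T24 to T30. Klf5 and Klf6 were lowest in replicate 2 in all 6 groups, at means of 1862 ± 213 and 6388 ± 410. Klf13 was lowest in replicate 1 in all 6, at 5687 ± 133. Klf15 was higher in replicate 1, at 742 ± 60.6, than in replicates 2 and 3, at 582 ± 130 and 545 ± 83.9, and the gap was at T20 and T30 (adjusted p = 0.0030 and 0.0021 in limma) rather than at T24 (0.174). Whether the gap of Klf15 differed between windows was not tested.

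**Figure D4:**
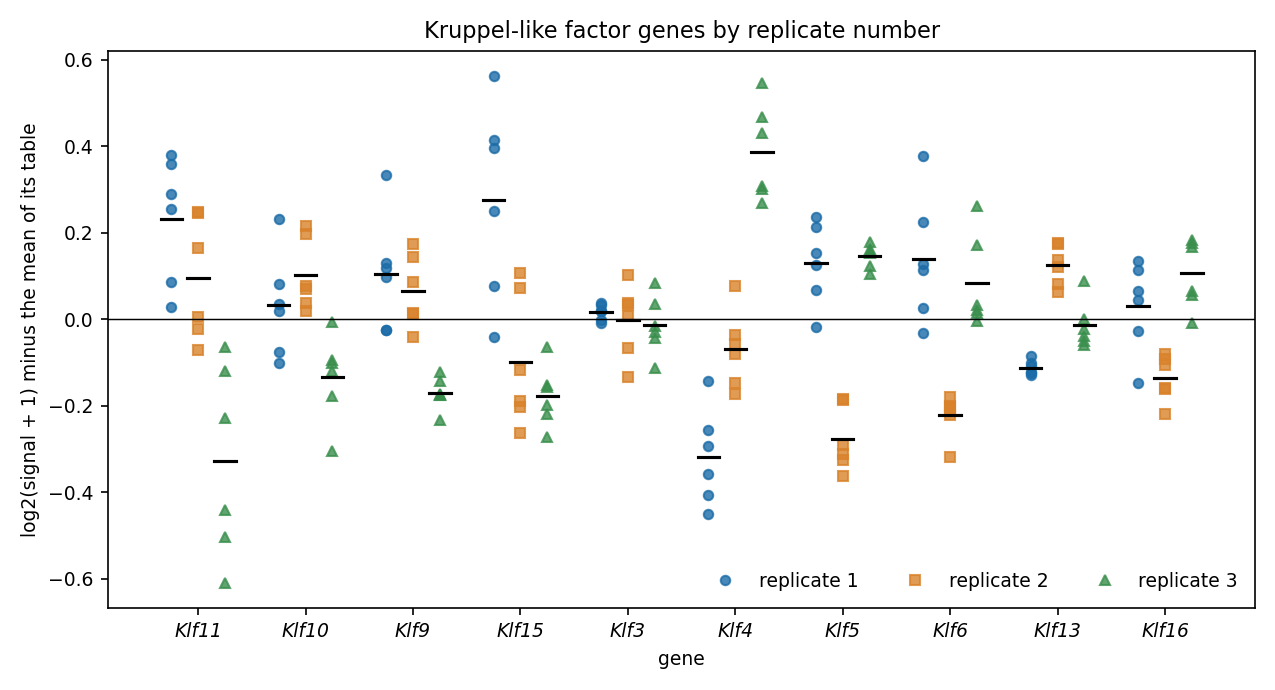
Log2(signal + 1) of each member minus its mean in the table (vertical axis, log2), split by replicate number. Points are the 6 libraries of a number and bars their means. The Klf11 points of replicate 3 lie below 0 and the Klf4 points of replicate 3 above 0.

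Cell type markers differed between the same numbers. Alb averaged 6657 ± 311 in replicate 1, 3784 ± 272 in replicate 2 and 3263 ± 132 in replicate 3 (SD, n = 6 libraries each). Of 10 hepatocyte markers, 6 were highest in replicate 1 and 6 lowest in replicate 3, while their summed signal ran from 183648 to 201962, from 155795 to 176912 and from 173865 to 202708 in replicates 1, 2 and 3. Of 6 fibroblast or stellate markers, 5 were highest in replicate 3, with sums of 26119 to 27976, 24986 to 27623 and 31672 to 34121, most of it Vim. Col1a2 was at 0 in 10 and Lrat at 0 in 17 of the 18 libraries. The 4 cholangiocyte markers summed to 17322 to 19437, 15694 to 19666 and 16402 to 20639 in the 3 numbers. The part of these markers in the differences of Klf11 and Klf4 between replicate numbers was not tested.

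Members that moved alike are described by Pearson's r over the 18 libraries, which share tables and replicate numbers. After each table's mean was subtracted, Klf5 and Klf16 had the highest r of the 45 member pairs, 0.87, and Klf9 and Klf4 the lowest, −0.86, while Klf11 and Klf4 had −0.81. After each pair's mean was subtracted, which leaves the pemafibrate difference alone and makes the libraries of a pair mirror images, Klf9 and Klf6 had the highest, 0.82, followed by Klf11 and Klf10 with 0.73. Klf10 ranked 190 of 13257 genes by its likeness to Klf11 in that pattern. Klf11 was chosen because every pair was higher, which raises this r for any gene with many pairs higher. Nothing is therefore read from the r of Klf11 and Klf10 or from this rank.

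Genes outside the family were closer to Klf11 than any member was. They were picked as the closest of 13257 genes, so nothing is read from this. Among the 5 of highest r after the pair mean was subtracted were Errfi1, a feedback inhibitor of the EGF receptor (r = 0.936), Creb3l3, a liver transcription factor (0.930), Exoc6b, an exocyst subunit (0.922), and Gpr85, an orphan receptor (0.922). Their pemafibrate differences were unequal in size. Klf11 was higher in every pair, so a ranking by likeness to it favours genes with many pairs higher. Creb3l3 differed by 1.26 ± 0.29 in mean log2 with 9 of 9 pairs higher, Gpr85 by 0.19 ± 0.12 with 9 of 9, Exoc6b by 0.081 ± 0.040 with 9 of 9, and Errfi1 by 0.041 ± 0.032 with 8 of 9 (SD, n = 9). After only the table mean was subtracted, replicate number and treatment both entered the pattern, with 73.1% and 24.7% of the Klf11 sum of squares. The most alike included Slc25a20, the mitochondrial carnitine carrier (0.941), and Hadha, a subunit of the trifunctional protein of fatty acid oxidation (0.928). Acadvl, a long-chain acyl-CoA dehydrogenase (0.915), and Rest, a repressor of neuronal genes (0.908), were also among them. Slc25a20, Hadha and Acadvl were higher with pemafibrate in 9 of 9 pairs, and Rest in 6 of 9. Slc25a20 averaged 965, 919 and 751 in replicates 1, 2 and 3.

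The rest of the family and the pathways around it showed no call. In the fit of 1 pemafibrate effect common to the 3 windows, limma called 26 of 13258 genes (0.196%), 25 higher and 1 lower. Of 16 other Klf and Sp genes 10 could be tested, and 0 passed, with 5 positive and 5 negative log2 differences and a median of 0.0053 beside −0.0025 for all genes. Sp3, a GC box binding factor, was higher in 8 of 9 pairs, by 0.05 in log2 (adjusted p = 0.764 in limma), and Klf12, a CtBP-binding repressor, had 0.11 with 6 of 9 (0.750). None of the 10 was higher in 9 of 9 pairs, and Klf17 was at 0 in every library.

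Partners and upstream signals of the family gave the same count. Of 9 corepressor genes 0 passed (3 positive, median −0.014). Sin3a, the scaffold that KLF11 binds, had a log2 difference of 0.07 (95% interval 0.012 to 0.12) with 6 of 9 pairs higher and an adjusted p of 0.634 in limma, and Hdac1, the deacetylase of that complex, −0.05 with 8 of 9 pairs lower (0.712). Of 14 TGF-beta genes 0 passed (6 positive, median −0.0063). Ski, a repressor of SMAD proteins, had 0.05 in log2 with 8 of 9 pairs higher (adjusted p = 0.674 in limma).

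Among genes reported as Klf targets in liver, 5 of 11 were above the minimum and 0 passed (4 positive, median 0.012). Ppargc1a, the coactivator of gluconeogenic genes, had a log2 difference of 0.16 (95% interval 0.078 to 0.24), with 6 of 9 pairs higher and an adjusted p of 0.260 in limma. Pck1 and G6pc, the gluconeogenic enzymes that the family is known to regulate, averaged 0.178 and 2.27 in normalized signal and were not tested, and Hpd was at 0 in all 18 libraries. Of 8 glucocorticoid-responsive genes 0 passed (4 positive, median 0.0019), with Nr3c1, the receptor, at −0.04 and 7 of 9 pairs lower (adjusted p = 0.819 in limma).

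Immediate early genes, which share rapid induction with Klf4, Klf6 and Klf10, gave 0 calls among 15 of 16 tested (6 positive, median −0.026). Ier3, a survival gene induced by stress, came nearest to the threshold, with a log2 difference of −0.14 (95% interval −0.20 to −0.083), 8 of 9 pairs lower and an adjusted p of 0.0884 in limma. Fos had 0.25 with 7 of 9 pairs higher (0.742). Of 19 clock genes 17 were tested and 0 passed (6 positive, median −0.022). Clock, which binds the E-box with its partner, had 0.05 with 7 of 9 pairs higher (adjusted p = 0.750 in limma). At an unadjusted p under 0.05 in the common fit stood 2 corepressor, 3 TGF-beta, 1 Klf target and 2 immediate early genes, and 0 of the other Klf and Sp, glucocorticoid and clock genes. For each of these lists the number of genes called was 0 also within each window and for each difference between windows.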

How the data were processed

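Poly(A) RNA of AML12 cells was sequenced as strand-marked libraries, per the labels' protocols. The authors deposited 1 table per window with 6 libraries each, holding normalized signal per Ensembl mouse gene ID, per the file headers, with column names ending as salmon's output does. Which counter, build and annotation were used is not given in the sources used here. Of values up to 8 reads, 56.8% to 74.9% were whole multiples of 1 read within 0.05, so reads were not recovered, depth is unknown and no count test was run. Symbols matched 35181 IDs.

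Values were analysed as log2(signal + 1), which understates low genes' changes. All genes whose mean reached 10 were fitted with limma 3.58.1 in R 4.3.3 (variance trend, Benjamini-Hochberg adjustment, threshold 0.05), and the fits were tested on simulated data. Replicate numbers were a block, because deviations from group means correlated at 0.31 to 0.62 between same-numbered libraries in all 9 pairs and at −0.42 to −0.11 between others. Nothing says that replicates are separate cultures, so the p-values cover only how these libraries spread, which may be technical. Members and lists were chosen with earlier results of these data known. Named were all members, up to 4 genes of smallest p per list, called genes, and the 5 most like Klf11 in each of 2 patterns; some are not reported here by name. Other pseudocounts, filters, scaling, fits and left-out replicates were tried.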

Additional observations from a re-analysis of the deposited data

Results flagged for a closer look

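In 3 members, all pairs pointed one way in one window and the opposite way in another. Klf9 was higher with pemafibrate in all 3 pairs over T14 to T20, at 0.0018 to 0.073 in log2. It was lower in all 3 over T24 to T30, at −0.24 to −0.055, and its effects differed by 0.15. Such a turn between these windows, in either direction, was seen in 5.8% of genes. Klf5 was higher in all 3 pairs over T0 to T24, at 0.0030 to 0.084, and lower in all 3 over T14 to T20. The lower pairs were at −0.083 to −0.051. Its effects differed by 0.10, and 2.57% of genes turned between these windows. Some Klf9 and Klf5 pairs on the higher side thus barely differed. Klf6 was higher in all 3 pairs over T0 to T24, at 0.019 to 0.091, and lower in all 3 over T24 to T30. The lower pairs were at −0.26 to −0.036. Its effects differed by 0.19, and 4.09% of genes turned between these windows. The tests of these differences in limma gave adjusted p of 0.526, 0.994 and 0.594 for Klf9, Klf5 and Klf6.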

How the results depend on the processing

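Under the other pseudocounts and TMM scaling, 90 of 90 paired differences of the members stayed within 1 SD of the reported mean. With 3 pairs, leaving one out cannot move a mean that far. For the pemafibrate effect in the windows starting at T0, T14 and T24 (7, 5 and 5 genes), calls fell to 0 in each window with no filter, with no variance trend and with no replicate block. Over T14 to T20, TMM scaling gave 2 and robust moderation 8. Leaving out replicates gave 4 to 12, 4 to 7 and 1 to 7. The common effect (26 genes) had 2 calls with no replicate block and 11 to 15 with a replicate left out. The 3 differences between windows had 0 to 1 call with a replicate left out. Replicate number differences (5824, 6759 and 4938 genes) gave 3137, 4454 and 2508 with no filter, 2148, 3574 and 1555 with no variance trend, and 2695 to 5522, 4231 to 5322 and 2219 to 4285 with a replicate left out. Without overlap between DMSO harvests, in either direction and over all comparisons of harvests, 1 member became 2 with TMM scaling. With a replicate left out the count was 6 to 7, where fewer libraries overlap less. The shares of all genes under these settings are not given, so nothing is read from these counts. With a replicate left out, Klf11 ranged from −0.046 to 0.079 for T0 to T24 minus T14 to T20 and from −0.062 to 0.012 for T0 to T24 minus T24 to T30, and Prodh from −0.096 to 0.070 in the common effect. Apart from the harvest counts, the cause of these changes was not tested. Of 300 gaps between replicate numbers of members, 264 stayed on their side of the threshold. Leaving out replicates for the replicate number test and the harvest levels was chosen after seeing the data. Unknown read depth and 3 libraries per group limit these values.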
